A study of Mus musculus with 25 samples.

Results

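Genes of the endothelium and of the response to low oxygen were followed in the gastrocnemius of ageing mice, and all 10 were present among the 8829 genes measured. They were taken by name, with earlier results of these data known. The group comprised the growth factors Vegfa and Vegfb, their receptors Flt1 and Kdr, and the endothelial surface genes Pecam1 and Cdh5. It also held the transcription factor subunits Hif1a and Epas1 and the oxygen sensors Egln1 and Egln3. The muscle came from male SAMP8 mice, an inbred senescence-prone strain derived from AKR/J stock. The Control group, 11 mice, received the vehicle by oral gavage. The Thymol group, 14 mice, received thymol, a plant monoterpene phenol, by the same route at 20 mg for each kg of body weight per day. By the paper's account, doses were given on most but not all days of the week. Dosing began at 8 months of age in both groups and lasted 3 months. Each mouse gave 1 library of 3′ end sequencing (QuantSeq), so that the 11 Control and 14 Thymol libraries were separate animals. No younger mice and no mice of a normally ageing strain were measured, and both groups therefore share the age and the strain.

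Oxygen reaches muscle fibres through capillaries whose endothelial cells carry VEGF receptors. VEGF-A is the main ligand that drives their growth and survival. When oxygen is ample, prolyl hydroxylases mark the alpha subunits of hypoxia-inducible factor for destruction by the VHL complex. When oxygen falls, the subunits persist, pair with ARNT and bind DNA at sites with the core letters ACGTG or GCGTG, and genes such as Vegfa and Egln3 are known targets. Control of the alpha subunits is thus largely at the protein level, which mRNA counts do not measure.

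To show the DNA at the start of the genes whose spread and partners are described below, the promoters of the 2 ligands and the 2 hydroxylases are printed here from RefSeq (GRCm38.p6), each spanning 250 bases before to 50 bases after a transcript start, 5′ to 3′ on the gene's own strand. Capitals mark ACGTG or GCGTG on either strand, and on the other strand these read CACGT or CACGC. The sequence of Vegfa is chr17:46032328-46032627, that of Vegfb chr19:6987602-6987901, that of Egln1 chr8:124949205-124949504 and that of Egln3 chr12:54203825-54204124, all on the minus strand.
Vegfa: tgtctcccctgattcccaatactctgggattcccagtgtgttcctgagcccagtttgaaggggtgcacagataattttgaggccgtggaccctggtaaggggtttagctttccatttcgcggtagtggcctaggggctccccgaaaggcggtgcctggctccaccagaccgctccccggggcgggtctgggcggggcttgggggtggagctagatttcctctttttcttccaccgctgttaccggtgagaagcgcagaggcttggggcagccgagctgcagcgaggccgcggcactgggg
Vegfb: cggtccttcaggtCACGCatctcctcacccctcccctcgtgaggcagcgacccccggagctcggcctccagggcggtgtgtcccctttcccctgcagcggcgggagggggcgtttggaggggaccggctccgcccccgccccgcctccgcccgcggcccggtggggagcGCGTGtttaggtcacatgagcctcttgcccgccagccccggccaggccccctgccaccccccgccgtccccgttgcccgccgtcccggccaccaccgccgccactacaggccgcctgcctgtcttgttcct
Egln1: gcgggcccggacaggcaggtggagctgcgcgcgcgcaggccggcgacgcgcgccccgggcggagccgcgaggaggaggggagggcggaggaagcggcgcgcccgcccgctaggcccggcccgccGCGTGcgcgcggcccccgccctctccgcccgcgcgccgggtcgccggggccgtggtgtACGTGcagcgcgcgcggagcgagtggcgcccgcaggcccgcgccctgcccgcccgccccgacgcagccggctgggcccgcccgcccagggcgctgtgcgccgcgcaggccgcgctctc
Egln3: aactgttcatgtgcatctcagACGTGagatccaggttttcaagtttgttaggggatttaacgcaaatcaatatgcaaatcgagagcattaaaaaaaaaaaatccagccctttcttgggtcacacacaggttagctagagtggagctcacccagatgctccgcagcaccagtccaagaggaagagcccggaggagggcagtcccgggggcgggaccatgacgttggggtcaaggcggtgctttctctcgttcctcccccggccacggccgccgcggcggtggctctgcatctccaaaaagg
The table of promoters held 7 of the 10 members, with no entry for Pecam1, Cdh5 or Epas1. Of the 4 printed windows, those of Vegfb and Egln1 hold 2 matches each, the Egln3 window holds 1 match, and the Vegfa window holds 0. Another transcript start inside Vegfa (chr17:46025114-46025413) has a window with 2 matches. Flt1 has 1 match, Kdr has 2 and Hif1a has 3, of which a pair overlap in a single CACGTG, the letters of an E-box. In all, 7 of the 8 windows of the members held a match, against 43.8% of the 32851 windows of this length, while the GC content of the members' windows ran from 54.7% to 86.0% and the median over all windows was 52.7%. A match is a run of letters and was not tested as a binding site.

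The libraries held 4463818 to 9463418 reads on the 8829 genes measured, with a median of 7503259. Levels are given as log2 CPM, the reads on a gene as a share of its library on a log2 scale, and 1 unit is a factor of 2. In 3′ sequencing 1 transcript gives about 1 read whatever its length, so that levels of different genes can be set side by side per transcript end, within differences in priming. The muscle markers were high, with Ttn at 15.46 and Acta1 at 14.69 log2 CPM, as was the fast fibre myosin Myh4 at 15.04. Control mouse 18 lay farthest out on the first principal component and had the highest share of reads from mitochondrial genes, 33.9% against at most 31.8% in the other 24 mice. Control mouse 27 had the fewest reads.

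**Figure D1:**
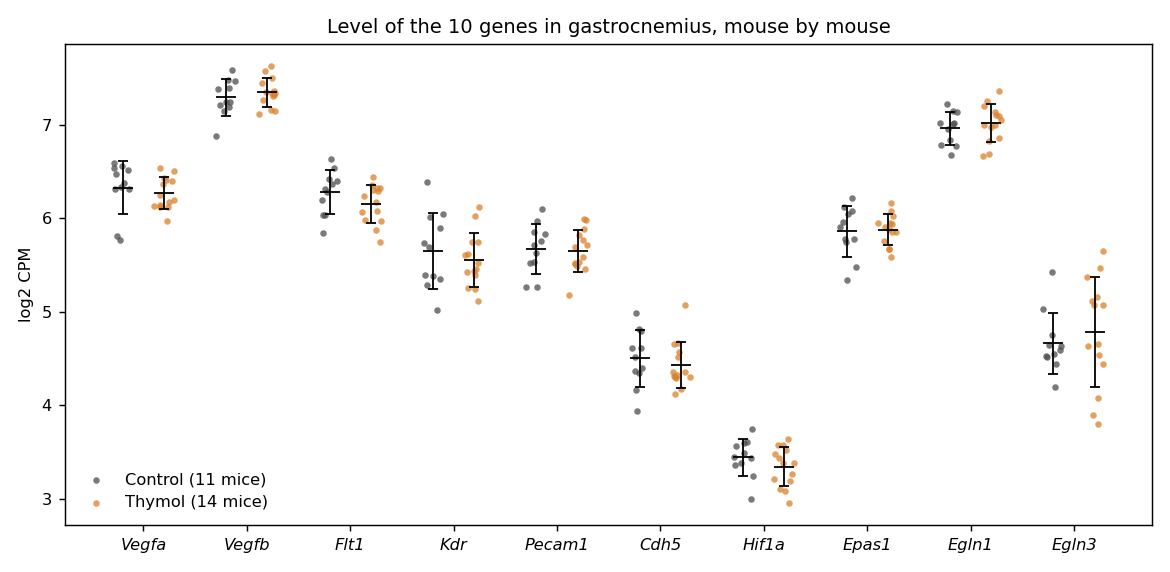
Level of each of the 10 genes in log2 CPM (y axis), 1 point for each mouse, Control in grey (11 mice) and Thymol in orange (14 mice). The horizontal mark and bar show the mean and SD of each group. The 2 groups overlap for every gene, and Egln3 shows the widest scatter of the 10.

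The ligands stood near the top of the 10 genes. Vegfb (chr19:6982473-6987651, minus strand), a ligand of Flt1, ran from 6.88 through a median of 7.24 to 7.58 log2 CPM in Control mice and from 7.12 through 7.34 to 7.63 in Thymol mice. Its mean of 7.32 over the 25 mice was the highest of the 10 genes. Vegfa (chr17:46016993-46032369, minus strand) ran from 5.77 through 6.38 to 6.59 log2 CPM in Control and from 5.97 through 6.23 to 6.54 in Thymol. Vegfb exceeded Vegfa in 25 of 25 mice, by 2.04-fold on average and by 1.42-fold to 3.08-fold in single mice. The ranges of the 2 groups overlapped for both ligands, and the lowest Vegfa value of all was that of Control mouse 18.

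Of the receptors, Flt1 (chr5:147561604-147726011, minus strand), which binds both ligands and in its soluble form traps them, ran from 5.85 through 6.31 to 6.63 log2 CPM in Control and from 5.75 through 6.20 to 6.44 in Thymol. The soluble form ends at another site within the gene, and whether its reads were counted with those of the full-length form was not tested. Kdr (chr5:75932827-75978458, minus strand), the main signalling receptor for VEGF-A, ran from 5.02 through 5.69 to 6.38 log2 CPM in Control and from 5.12 through 5.49 to 6.12 in Thymol. Flt1 exceeded Kdr in 24 of 25 mice, by 1.53-fold on average. Control mouse 18 was again the lowest of the Control mice for both receptors, and the groups overlapped.

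Pecam1 (chr11:106654217-106750628, minus strand), which encodes an adhesion molecule at endothelial cell contacts that platelets and leukocytes also carry, ran from 5.27 through 5.71 to 6.10 log2 CPM in Control and from 5.18 through 5.64 to 5.99 in Thymol. Cdh5 (chr8:104101625-104144511, plus strand), the cadherin of endothelial adherens junctions, ran from 3.94 through 4.52 to 4.99 in Control and from 4.13 through 4.34 to 5.07 in Thymol. Pecam1 exceeded Cdh5 in 25 of 25 mice, by 2.30-fold on average. Control mouse 14 had the highest Control value of Kdr, Pecam1 and Cdh5 alike.

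The alpha subunits were unequal. Epas1 (chr17:86753700-86833410, plus strand) encodes HIF-2 alpha, which endothelial cells are known to express, and ran from 5.34 through 5.91 to 6.22 log2 CPM in Control and from 5.58 through 5.90 to 6.16 in Thymol. Hif1a (chr12:73901375-73947530, plus strand) encodes HIF-1 alpha and ran from 3.00 through 3.45 to 3.75 in Control and from 2.96 through 3.38 to 3.64 in Thymol. Epas1 exceeded Hif1a in 25 of 25 mice, by 5.58-fold on average and by 3.85-fold to 8.30-fold in single mice. Hif1a rested on 34 to 115 reads in a library, the fewest of the 10 genes, whereas Epas1 rested on 177 to 606. In the GENCODE M21 annotation of GRCm38 the exons of 2 other genes overlap exons of Hif1a, but neither reaches its last exon, and 0 other genes overlap the last exon of any of the 10 members.

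The prolyl hydroxylases, which use oxygen to mark the alpha subunits, were unequal as well. Egln1 (chr8:124908587-124949324, minus strand) encodes PHD2, the main oxygen sensor in most tissues, and ran from 6.67 through 7.01 to 7.22 log2 CPM in Control and from 6.67 through 7.03 to 7.36 in Thymol. Egln3 (chr12:54178981-54203860, minus strand) encodes PHD3, itself a target of the hypoxia-inducible factors, and ran from 4.19 through 4.59 to 5.43 in Control and from 3.80 through 4.87 to 5.65 in Thymol. Egln1 exceeded Egln3 in 25 of 25 mice, by 4.79-fold on average, with a range of 2.32-fold to 9.03-fold.

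From the highest mean to the lowest the order was Vegfb (7.32 log2 CPM), Egln1 (6.99), Vegfa (6.29), Flt1 (6.21), Epas1 (5.87), Pecam1 (5.66), Kdr (5.60), Egln3 (4.73), Cdh5 (4.46) and Hif1a (3.39). In this order 4 neighbouring pairs differed by less than the SD of their difference between mice. Vegfa exceeded Flt1 by 0.08 (SD 0.24, higher in 16 of 25 mice), Epas1 exceeded Pecam1 by 0.21 (SD 0.25, 21 of 25), Pecam1 exceeded Kdr by 0.07 (SD 0.38, 14 of 25) and Egln3 exceeded Cdh5 by 0.27 (SD 0.54, 17 of 25). The other 5 neighbouring pairs differed by more than that SD, in 22 to 25 of the 25 mice.

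The study asked what thymol does to the ageing muscle, and for these genes the comparison gave small differences in both directions. None of the 10 members passed the test in the fit across all genes (limma, Benjamini-Hochberg adjusted p = 0.9999 for each), and 0 had an unadjusted p under 0.05. In the same fit 0 of 8829 genes, or 0%, had an adjusted p under 0.05, and 312, or 3.53%, had an unadjusted p under 0.05. With voom on the recovered reads the counts were 0 genes adjusted and 304 unadjusted. In bulk muscle, fewer cells of a type and less RNA per cell cannot be told apart, which holds for every endothelial gene here.

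The receptors and junction genes had log2 fold changes below 0, none of which passed the test. Flt1 differed by -0.12 (95% interval -0.30 to 0.05, unadjusted limma p = 0.155), and 10 of 14 Thymol mice were below the Control median. Kdr differed by -0.10 (-0.36 to 0.16, p = 0.425), Cdh5 by -0.07 (-0.29 to 0.14, p = 0.489) and Pecam1 by -0.02 (-0.22 to 0.17, p = 0.805, limma unadjusted). Single mice moved these values in both directions. Without Control mouse 18, Kdr stood at -0.17 and Cdh5 at -0.13, and without Control mouse 14 they stood at -0.03 and -0.03. Leaving out 1 mouse gave -0.17 to -0.09 for Flt1. Without Control mouse 18, Flt1 stood at -0.17 with an unadjusted limma p of 0.0479, and without Control mice 18 and 27 it stood at -0.20 with an unadjusted limma p of 0.0214. Neither passed after adjustment, and the second setting was chosen after seeing the data.

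Of the ligands, Vegfa differed by -0.06 (95% interval -0.24 to 0.12, unadjusted limma p = 0.504) and Vegfb by 0.05 (-0.08 to 0.19, p = 0.428). Of the subunits, Hif1a differed by -0.10 (-0.29 to 0.09, p = 0.301) and Epas1 by 0.02 (-0.15 to 0.19, p = 0.834). Of the hydroxylases, Egln1 differed by 0.05 (-0.10 to 0.21, p = 0.475) and Egln3 by 0.12 (-0.24 to 0.48, p = 0.508). Without Control mouse 18, Vegfa stood at -0.11, and without Control mouse 1 at -0.03. Egln3 stood at 0.20 without Control mouse 14 and at 0.05 without Thymol mouse 6, and Vegfb at 0.01 without Control mouse 19. As ratios, the 95% intervals ran from 0.778 to 1.11 for Kdr and from 0.844 to 1.40 for Egln3, the 2 widest of the 10. The interval of Vegfb, from 0.943 to 1.14, was the narrowest. A permutation of the mouse labels gave two-sided p-values of 0.173 (Flt1) to 0.842 (Epas1).

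**Figure D2:**
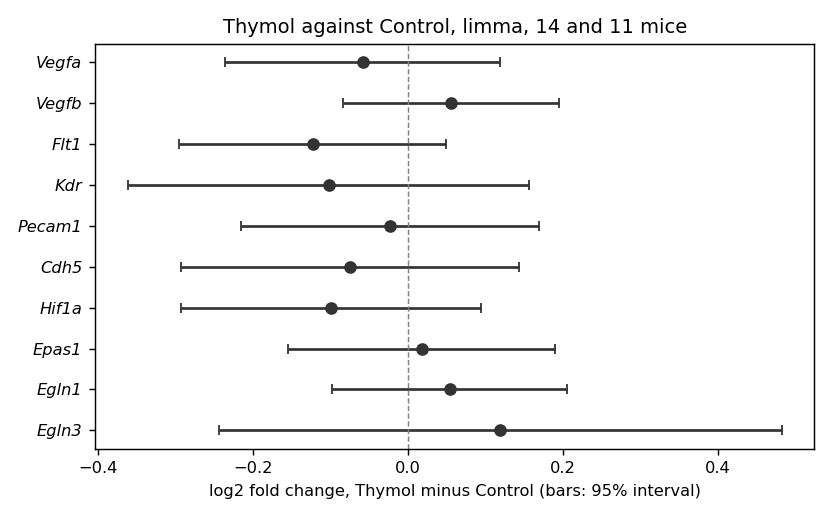
Thymol minus Control on the log2 scale (x axis) for each of the 10 genes (y axis), with the 95% interval of the limma fit over 14 Thymol and 11 Control mice. The interval of every gene crosses 0, and that of Egln3 is the widest.

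Related genes were compared in the same fit. Among 30 other endothelial markers present of 35 listed, 25 were lower and 5 higher in Thymol, while 50.4% of all genes were lower. Their median log2 fold change was -0.08 against -0.0014 over all genes, and the unadjusted p was under 0.05 for 0 of them. Of the 30 markers 27 had a positive r over mice with the mean of Flt1, Kdr, Pecam1 and Cdh5. The count of lower markers is therefore not one of 30 separate observations. The most abundant were the water channel Aqp1 at -0.09 (unadjusted limma p = 0.214) and the caveolar gene Cavin2 at -0.09 (p = 0.428). Of 16 vessel growth genes, 10 were lower and 6 higher, with a median of -0.07. Of these genes 2, or 12.5% against 3.53% of all genes, had an unadjusted limma p under 0.05, and neither passed after adjustment. They were the sphingosine-1-phosphate receptor S1pr1 at -0.34 (limma p = 0.0115) and the angiopoietin co-receptor Tie1 at -0.27 (limma p = 0.0194). Ppargc1a, a coactivator of mitochondrial genes, stood at -0.09 and Angpt1, the pericyte-made ligand of Tek, at -0.18. Nrp1, a co-receptor of VEGF, stood at -0.10 and its relative Nrp2 at -0.01.

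On the hypoxia side, 14 other genes of the HIF pathway had a median log2 fold change of -0.01 with 8 lower and 6 higher, and 0 with an unadjusted p under 0.05. Elob, a subunit of the VHL ubiquitin ligase, stood at 0.04 and Rack1 at -0.01. Among 31 HIF target genes present of 40 listed, 18 were lower and 13 higher, with a median of -0.02. The glycolytic genes Aldoa and Ldha stood at 0.03 and -0.01. Of the targets 1, or 3.23% against 3.53% of all genes, had an unadjusted limma p under 0.05. It was the lipoprotein receptor Vldlr at -0.26 (limma p = 0.0186), and it did not pass after adjustment.

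Markers of other cells and fibres were tabulated in the same way. Pericyte and smooth muscle markers (10 genes) had a median log2 fold change of -0.05, with Rgs5 at -0.16 and Abcc9 at -0.04. Fibroblast markers (8 genes) had a median of -0.13, with Dcn at -0.11 and Col1a2 at -0.16. Leukocyte markers (7 genes) had a median of 0.02, with Lyz2 at 0.15 and C1qa at -0.05. Adipocyte markers (5 genes) had a median of 0.0034, with Cfd at 0.11 and Adipoq at 0.0034, and erythroid markers (5 genes) had a median of -0.14, with Hbb-bs at -0.07 and Hba-a1 at -0.14. Fast fibre markers (7 genes) had a median of 0.00067, with Myh4 at 0.04 and Tnnc2 at 0.05, and skeletal muscle markers (6 genes) had a median of 0.02, with Ttn at 0.03 and Acta1 at 0.02. The 7 slow fibre markers were all lower in Thymol with a median of -0.28, with Myl3 at -0.23 and Tnnt1 at -0.31, and 0 had an unadjusted p under 0.05. Their mean over the list ran from 6.60 to 9.62 log2 CPM in Control and from 2.71 to 10.0 in Thymol. The value of 2.71 was that of Thymol mouse 20 alone, and the next lowest Thymol mouse, mouse 3, stood at 5.99. The group mean of the list was 8.09 log2 CPM in Control and 7.82 in Thymol. Without Thymol mouse 20 the Thymol mean lay above that of Control, so the lower list mean rested on that mouse. Single markers were not tabulated without it.

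The 10 genes differed in how far mice lay apart. After the group means were removed, the SD between mice was 0.49 for Egln3 and 0.34 for Kdr, and it lay between 0.17 (Vegfb) and 0.27 (Cdh5) for the other 8. Counting reads alone would give an SD of 0.11 for Egln3, or 4.66% of its variance, so that nearly all of its spread lay beyond counting. The highest mouse exceeded the lowest by 3.59-fold for Egln3, 2.57-fold for Kdr and 1.61-fold for its relative Egln1. For Hif1a counting reads accounted for 63.7% of the variance, so that of its SD of 0.21 an SD of 0.12 lay beyond counting. For the remaining 8 genes that share was 5.17% to 17.7%. Over all genes the spread of Egln3 stood at the 89.8 percentile and that of Vegfb at the 16.1 percentile. These shares cover counting error only, since reads were not tied to single molecules.

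**Figure D3:**
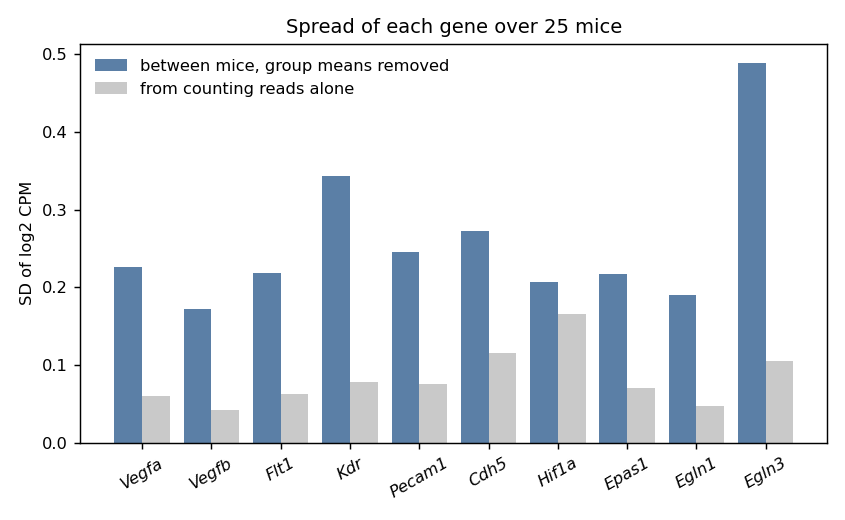
SD of log2 CPM between the 25 mice after removal of the group means (blue) beside the SD that counting reads alone would give (grey), for each of the 10 genes. The blue bar of Egln3 is the tallest at 0.49, and the 2 bars of Hif1a, 0.21 and 0.17, are the closest in height.

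The SD of Egln3 was 0.32 in Control and 0.58 in Thymol. The 3 lowest mice, Thymol 21, 28 and 20 at 3.80, 3.90 and 4.08 log2 CPM, and the 2 highest, Thymol 30 and 6 at 5.47 and 5.65, all belonged to the Thymol group. Deviations from the group mean were compared across all genes in a limma fit added after seeing the data. There Egln3 deviated by 0.28 more in Thymol (unadjusted limma p = 0.0173, adjusted p = 0.774), and 0 of the 10 members were called. Over all genes 0%, or 0 genes, were called for spread after adjustment (smallest adjusted p = 0.317), and 523 were under 0.05 unadjusted.

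Whether the genes moved together from mouse to mouse was examined with the group means removed, in 1 fit for each member across the other 8828 genes. Of 45 pairs of members 35 had a positive and 10 a negative Pearson r, with a median of 0.25, and 0 pairs were called after adjustment over all genes. The members with the most partners at an unadjusted limma p under 0.05 were Kdr, with 5 of 9 other members against 11.9% of all genes, and Epas1, with 5 of 9 against 7.73%. Vegfb had 4 of 9 against 10.6%, Flt1 had 4 against 8.04% and Cdh5 had 4 against 6.38%. Egln3 had 3 of 9 against 13%, Vegfa had 2 against 12.4% and Pecam1 had 2 against 8.85%. Egln1 had 1 of 9 against 8.12%, and Hif1a had 0 of 9 against 6.35%. The members were chosen as one group of genes and share libraries, and these counts are a description.

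The 3 largest positive r were those of Kdr with Cdh5, of Cdh5 with Epas1 and of Kdr with Egln3. Kdr and Cdh5, both genes of the endothelial surface, had r = 0.59 (permutation p = 0.00362, 0.0682 after adjustment over the 45 pairs) and Spearman rho = 0.49 (permutation p = 0.0195, adjusted 0.175). Cdh5 and Epas1 had r = 0.57 (permutation p = 0.00455, adjusted 0.0682) and rho = 0.47 (permutation p = 0.0269, adjusted 0.202). Kdr and Egln3 had r = 0.56 (permutation p = 0.00125, adjusted 0.0562) and rho = 0.59 (permutation p = 0.00138, adjusted 0.0621). In the fits over all genes the adjusted limma p of these pairs was 0.515, 0.551 and 0.134. Within Control r was 0.70, 0.70 and 0.68, and within Thymol it was 0.44, 0.38 and 0.59. Without the 2 mice farthest from the median of the first gene r was 0.47 for each of the first 2 pairs and 0.43 for Kdr and Egln3. Without Control mouse 18 r was 0.50, 0.48 and 0.58. With the library total as a further term, Kdr and Egln3 had r = 0.65 and an adjusted limma p of 0.0469, and this was the 1 pair called in any setting.

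The 3 largest negative r were those of Vegfa with Pecam1 at -0.39, of Hif1a with Egln3 at -0.35 and of Vegfb with Hif1a at -0.30, with adjusted limma p of 0.563, 0.795 and 0.869 over all genes. Their rho were -0.30, -0.41 and -0.39. The permutation p, adjusted over the 45 pairs, was 0.204, 0.268 and 0.349 for r and 0.346, 0.241 and 0.241 for rho. Within Control r was -0.44, -0.19 and 0.12, and within Thymol it was -0.33, -0.43 and -0.70, a difference for Vegfb and Hif1a that was not tested. The pairs among the endothelial genes Flt1, Kdr, Pecam1 and Cdh5 had r from 0.17 to 0.59 with a median of 0.36. Depth moved with some of these levels. Hif1a had r = 0.56 with the log2 library total (permutation p = 0.00483, adjusted over 10 genes 0.0483) but rho = 0.28 (permutation p = 0.175, adjusted 0.438), and without Control mouse 27 and Thymol mouse 3 r was 0.15, so that the relation rests on those 2 mice. Cdh5 had r = 0.45 with it (permutation p = 0.0351, adjusted 0.175) and rho = 0.42 (permutation p = 0.0436, adjusted 0.355).

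**Figure D4:**
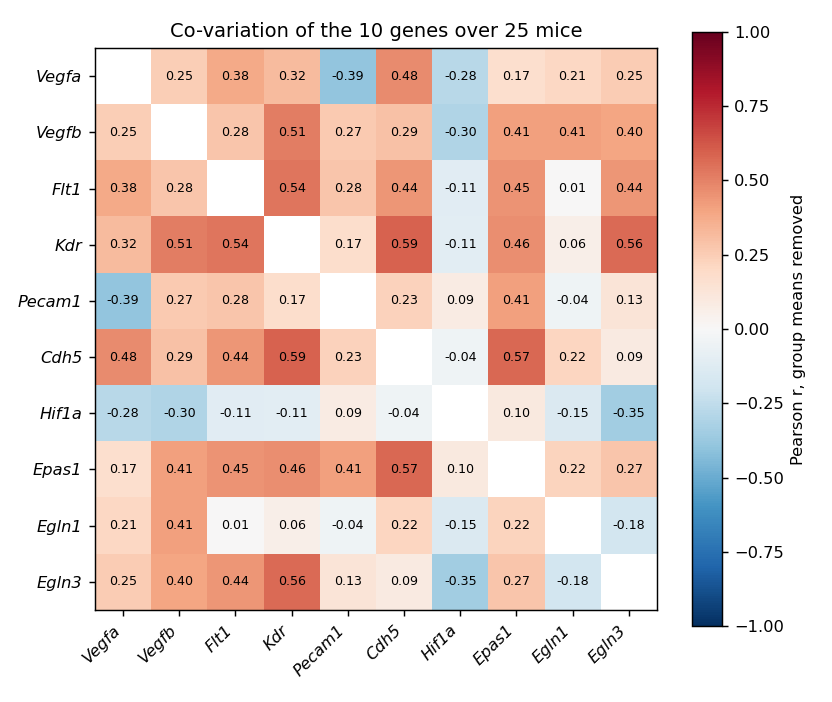
Pearson r between each pair of the 10 genes over 25 mice with the group means removed, red for positive and blue for negative, from -1 to 1. Of the 45 pairs 35 are positive, the largest being Kdr with Cdh5 at 0.59, and the most negative is Vegfa with Pecam1 at -0.39.

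The endothelial genes moved with markers of the vessel wall. The mean of Flt1, Kdr, Pecam1 and Cdh5 had r = 0.83 with Rgs5, a pericyte regulator of G protein signalling, and r = 0.82 with Cav1, the caveolin of endothelial caveolae. The next 6 genes by r were Ets1 (0.72), a transcription factor of endothelium and lymphocytes, the chemokine Cxcl12 (0.70), Acss2 (0.68), Arf2 (0.68), Polr1a (0.68) and Tm4sf1 (0.67). Of the other endothelial markers 27 of 30 had a positive r with this mean, with a median of 0.36, and of the pericyte and smooth muscle markers 10 of 10 had one, with a median of 0.52. Fibroblast markers were positive for 0 of 8 (median -0.24) and leukocyte markers for 0 of 7 (median -0.32), while the median over all genes was -0.0054. The 4 genes were not alike in this. Flt1, Kdr and Cdh5 each had a negative r with 8 of 8 fibroblast and 7 of 7 leukocyte markers, whereas Pecam1 had a positive r with 7 of 8 fibroblast markers (median 0.20) and 7 of 7 leukocyte markers (median 0.18), a difference that was not tested. The mean had r = 0.43 with the log2 library total, whose part in these values was not tested. These r were picked as the highest of the table or read from lists and carry no p.

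Taken singly, the endothelial members had few called partners. Kdr had 3 genes called, or 0.034% of those tested, namely Cxcl12 (r = 0.74), Cav1 (r = 0.73) and, in the other direction, the triad gene Trdn of muscle fibres (r = -0.78), each with an adjusted limma p of 0.0479. Leaving out single mice gave 0 to 17 genes for Kdr, with 0 without Control mouse 18 and 17 without Control mouse 27. Flt1, Pecam1 and Cdh5 each had 0 genes called, or 0%, although 710, 781 and 563 genes had an unadjusted limma p under 0.05. The genes with the highest r were Efnb1 (0.71), Podxl (0.69) and Ints7 (0.69) for Flt1. They were Clic1 (0.76), Foxp4 (0.72) and Ndufa4l2 (0.71) for Pecam1, and Fam43a (0.73), Kbtbd4 (0.68) and Acss2 (0.66) for Cdh5. Podxl, which encodes an endothelial and podocyte sialomucin, and Cav1 are on the list of other endothelial markers. Rcc1 (0.72) was the third gene by r for Kdr.

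Vegfb moved with the genes of mitochondrial respiration. In its fit 80 genes, or 0.906%, were called, of which 75 had a positive r. Cox6c, a subunit of cytochrome c oxidase, had r = 0.90 (adjusted limma p = 9.3e-05), with 0.95 in Control and 0.83 in Thymol. Ckmt2, the mitochondrial creatine kinase of muscle, had r = 0.84 (adjusted limma p = 0.000126), and mt-Co1, encoded in the mitochondrial genome, had r = 0.83 (adjusted limma p = 0.000919). Without the 2 mice farthest from the median of Vegfb the r with Cox6c was 0.85, and its Spearman rho over all mice was 0.86. Among 90 genes of the respiratory chain and ATP synthase, a list drawn up after the first results were seen, 86 had a positive r with Vegfb and 25 were called, with a median of 0.57 against -0.01 over all genes. Members of each complex were among them, such as Ndufs1 (0.80), Sdha (0.80), Uqcrc1 (0.80), Cox4i1 (0.78) and Atp5f1b (0.77). Further called genes were Cs (0.74) and Mdh2 (0.73) of the citric acid cycle and Perm1 (0.76), a muscle regulator of mitochondrial genes.

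With Control mouse 18 left out, 102 genes were called for Vegfb, and the median r of the respiratory list was 0.58. Without Control mouse 19, the lowest mouse for Vegfb, 24 genes were called, without Control mouse 14 the count was 52, and the other mice left out singly gave 55 to 102. The same respiratory list had a median r of 0.14 with Vegfa, and 0 of its genes were called there. Its median r was 0.39 with Egln1, 0.32 with Kdr and 0.31 with Egln3, and it was -0.23 with Hif1a, for which 8 of 90 had a positive r. Vegfb had r = 0.13 with the mean of the slow fibre markers (permutation p = 0.508, adjusted over 10 genes 0.634) and rho = 0.06 (permutation p = 0.771, adjusted 0.857).

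Egln3 moved with slow fibre genes and with some genes of fatty acid oxidation, such as Hadh (r = 0.69) and Acadl (r = 0.64). In its fit 183 genes, or 2.07%, were called, 147 with a positive and 36 with a negative r. Vgll2, a cofactor of TEAD factors in skeletal muscle, had r = 0.92 (adjusted limma p = 1.49e-08), with 0.76 in Control and 0.97 in Thymol. Zdhhc23, a palmitoyltransferase, had r = 0.86 and Dusp18, a phosphatase, had r = 0.84, each with an adjusted limma p of 1.61e-05. For Vgll2 the Spearman rho was 0.87, and r was 0.89 without Thymol mice 30 and 6, the 2 farthest from the median of Egln3. Called with a positive r were Lpl (0.84), the lipase that frees fatty acids at the capillary wall, myoglobin Mb (0.77), the heart-type lactate dehydrogenase Ldhb (0.77), the slow calsequestrin Casq2 (0.76), Mybpc1 (0.81), Myoz2 (0.74) and Esrrg (0.74). The 36 genes called with a negative r included the fast fibre genes Mybpc2 (-0.73), Actn3 (-0.66) and Myh4 (-0.65), picked after their values were seen, and also Rcsd1 (-0.75), Tef (-0.72) and Per3 (-0.63), while Myh2, the myosin of fast oxidative fibres, was called with a positive r (0.70).

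The 7 slow fibre markers all had a positive r with Egln3, with a median of 0.65. The fast fibre markers had a median of -0.56 with 1 of 7 positive, Myh1 at 0.45. Egln3 had r = 0.65 with the mean of the slow fibre markers (permutation p = 0.00104, adjusted over 10 genes 0.0104) and rho = 0.63 (permutation p = 0.00175, adjusted 0.0175). Within Control r was 0.65, within Thymol it was 0.65, and without Thymol mice 20 and 6, the farthest from the median of the slow fibre mean, it was 0.59. Each of the other 9 members had an adjusted permutation p of at least 0.509 for r with this mean. With the slow fibre mean as a further term 15 genes were called for Egln3 in place of 183, and 10 of them were also called without it. Vgll2 remained among them (r = 0.86, adjusted limma p = 4.1e-05), as did Zdhhc23 (0.75), Lpl (0.74), Dusp18 (0.73) and Xirp1 (0.74). With the same term in the fit for thymol, 0 of the 10 members were called. Left out singly, the mice gave 112 to 204 genes for Egln3, with 112 without Control mouse 14, 116 without Thymol mouse 6 and 120 without Thymol mouse 21.

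**Figure D5:**
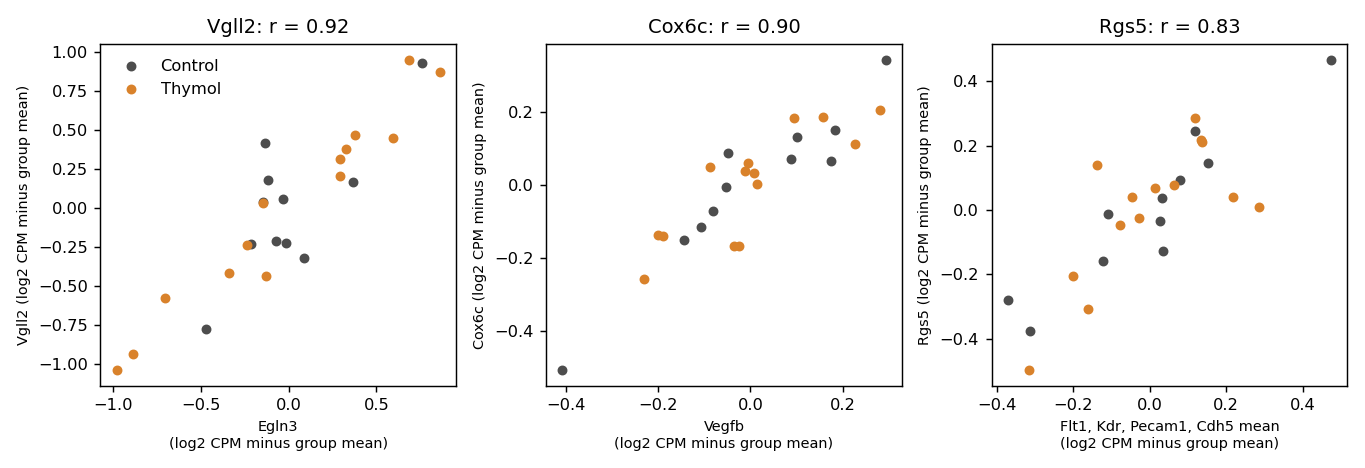
Deviation of each mouse from its group mean in log2 CPM for Vgll2 against Egln3 (left), Cox6c against Vegfb (middle) and Rgs5 against the mean of Flt1, Kdr, Pecam1 and Cdh5 (right), Control in grey and Thymol in orange. The Pearson r over the 25 mice are 0.92, 0.90 and 0.83, and each pair was picked as the highest r of its kind.

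The partners called for Vegfa depended on single mice. In its fit 12 genes, or 0.136%, were called, 1 with a positive and 11 with a negative r. The positive one was Fbxo32 (r = 0.69, adjusted limma p = 0.0374), the muscle ubiquitin ligase atrogin-1. The negative ones included the matrix metalloproteinases Mmp14 (r = -0.78, adjusted limma p = 0.00994) and Mmp2 (-0.72), the lysosomal lipase Lipa (-0.75), Gpnmb (-0.75), Tgfbi (-0.75), Pcolce (-0.68), Ecm1 (-0.69) and Grn (-0.67). The remaining 3 were Topors (-0.75), Mir99ahg (-0.72) and the capillary and monocyte surface gene Ly6c1 (-0.69). Fibroblast markers were positive for 0 of 8 with a median r of -0.56 and leukocyte markers for 0 of 7 with a median of -0.57. Without Control mouse 18, which had the lowest Vegfa of all, 0 genes were called, and the medians were -0.37 and -0.41. In the other direction, 55 genes were called without Thymol mouse 6 and 48 without Control mouse 10, and 59 with median centring. Mmp14 had r = -0.69 without Control mouse 18. By r the first 2 genes with a positive sign were Usp19 (0.71) and Nsf (0.71), neither of them called.

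For the remaining genes of the oxygen response no gene was called. Hif1a, Epas1 and Egln1 each had 0 genes, or 0%, with an adjusted limma p under 0.05, and 561, 682 and 717 genes had an unadjusted p under 0.05. The highest r were those of Ddx10 (0.70), Med17 (0.69) and Nans (0.66) with Hif1a, and of Acss2 (0.70), S1pr3 (0.66) and Nol10 (0.65) with Epas1. Acss2, an acetyl-CoA synthetase, was thus among the 3 highest for both Cdh5 and Epas1. Ank (0.75), the potassium channel gene Kcnc1 (0.74) and Rmdn1 (0.72) had the highest r with Egln1, and the smallest adjusted limma p in its fit was 0.0553. The 31 HIF target genes had a median r of -0.0061 with Egln3, 0.08 with Vegfa and 0.04 with Vegfb, against medians over all genes of -0.01, -0.0011 and -0.01. Single targets lay far from these medians. In the Egln3 fit Bnip3 was called with r = 0.64 (adjusted limma p = 0.0213). Ldha was called there with r = -0.66 (adjusted limma p = 0.0196), in the other direction.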

How the data were processed

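The authors mapped QuantSeq 3′ reads with STAR 2.5.3 to GRCm38 (Ensembl), counted them per gene with HTSeq 0.6.1, filtered low genes and applied TMM scaling; the strand setting of the counting is not given in the sources used here. They deposited log2 CPM values (scaled counts) for 8829 genes in 25 mice, and this log2 table, not counts, was the unit analysed. Whole reads were recovered from the steps between values, 100.0% within 0.05 reads, and rebuilt the table with a prior of 2 reads. They served for depth, counting error and 1 alternative. Mice were grouped by their titles. Differences and co-variation were fitted across all genes with limma 3.58.1 (R 4.3.3) with an intensity trend, two-sided, with Benjamini-Hochberg adjustment and a threshold of 0.05. Co-variation had the treatment as a term, and a pair of members was called when both of its fits passed. Permutations numbered 100000, within groups for correlations. Fits were tested on simulated data. Members, lists and tests were chosen with earlier results of these data known. Named genes were all members, the 2 most abundant genes of each list and those with an unadjusted p under 0.05, the 3 largest and 3 smallest r among pairs, and the 3 genes with the highest r for each member (8 for the endothelial mean). Other called partners and the respiratory list were chosen after their values were seen. Positions and overlaps came from GENCODE M21. Alternatives covered scaling, filters, the model, covariates, a block and single mice. No column was left unmapped (0).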

Additional observations from a re-analysis of the deposited data

How the results depend on the processing

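The counts of 0 genes and 0 members called for thymol held in all 13 other settings and without each of the 25 mice in turn. Pairs of members called numbered 0 in these settings except with the log2 library total as a covariate, where 1 pair was called, and 0 without each mouse. Signs turned for small differences. Epas1 stood at -0.00397 with voom on recovered reads, -0.0149 with the library total as a covariate, -0.0341 without Control mouse 27, -0.0201 without Control mouse 18, -0.00403 without Thymol mouse 22 and -0.082 without Control mice 18 and 27, and its range without single mice was -0.0341 to 0.0534. Pecam1 stood at 0.00623 without Control mouse 10, 0.0192 without Control mouse 14 and 0.013 without Thymol mouse 16, with a range of -0.0645 to 0.0192. With the first number of the titles as a block, whose meaning the labels do not give, Vegfa stood at 0.0363 and Cdh5 at 0.0717. The 9 pairs of mice of different groups that share this number had a mean r of -0.0022, against 0.00021 for 145 other pairs, and the mouse numbers themselves are not shared between groups. The r of Vegfb with Hif1a was 0.123 within Control and -0.704 within Thymol, and lay between these in the other settings.

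Counts of genes called for co-variation were recomputed in settings chosen for them after seeing the data. For Vegfa (12) they were 7 with quantile normalization, 59 with median centring, 26 with a robust fit, 0 with sample weights, 0 with the library number as a covariate, 1 with the block, 7 with the endothelial marker mean as a covariate and 0 without Control mice 18 and 27, and 0 to 55 without single mice. For Kdr (3) they were 15 with median centring, 8 among the 75% of genes with the highest mean, 0 without the trend, 11 with a robust fit, 0 with sample weights, 0 with the library number, 44 with the library total, 0 with the slow fibre mean, 0 with the block, 101 with the endothelial marker mean and 1 without Control mice 18 and 27, and 0 to 17 without single mice. For Vegfb (80) the block gave 6, and single mice left out gave 24 to 102. For Egln3 (183) the library number gave 111, the slow fibre mean 15 and the block 49, and single mice left out gave 112 to 204. The cause of these shifts was not tested. With the block, a mouse alone under its number did not inform the slope, so those fits rested on fewer mice. Leaving out single mice moved the count by over 1.5 times for 15 of 25 mice with Vegfa, 19 with Kdr, 2 with Vegfb (Control 14 and 19) and 3 with Egln3 (Control 14, Thymol 6 and 21). Depth limits Hif1a, whose 34 to 115 reads leave little spread beyond counting, and the labels give no extraction or sequencing batch.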
